A study of Rattus norvegicus with 12 samples.

Results

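The miRNAs carried by extracellular vesicles (EVs) of 2 mesenchymal cell sources were compared with those in EVs of 2 hepatocytic cell sources of the rat, on 12 single-colour miRNA arrays. The mesenchymal side held 3 arrays of Thy1-MC-EVs and 3 arrays of MSC-EVs, and the hepatocytic side held 3 arrays of SH-EVs and 3 arrays of MH-EVs, which is every array of the series. Of 727 rat miRNA probes, 387 were detected on all 3 arrays of at least 1 EV source and were tested, and 15 of these had 6 mesenchymal arrays that all lay above, or all lay below, the 6 hepatocytic arrays. Of the 15, 9 were higher and 6 lower in mesenchymal EVs.

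Thy1-MCs were the mesenchymal part of Thy1-positive cells sorted from rat livers injured with D-galactosamine (GalN), left on the dish after epithelial colonies had been taken off, and MSCs were bone marrow mesenchymal cells. SHs were small hepatocytes, a population with progenitor properties, and MHs were mature hepatocytes, both from uninjured rats per the methods. The labels call the sources liver stem cells (Thy1), bone marrow mesenchymal cells, liver progenitor cells (SH) and liver parenchymal cells (MH). The labels give plastic dishes for both mesenchymal cultures, hyaluronic acid-coated dishes for SHs and type I collagen for MHs, while the methods describe a collagen coating for Thy1-MCs. All cultures were kept without serum for 2 days before the vesicles were collected by filtration and ultracentrifugation, and no gene was altered in these cultures. The methods give F344/Nslc males of 8 to 10 weeks for donor cells. For the healthy rats that gave SHs and MHs they state a range that also starts at 8 weeks but reaches somewhat older. They describe no donor for the marrow cells. Cell kind, culture surface and, for Thy1-MCs, liver injury moved together between the sides and cannot be told apart. Each side had only 2 cell sources, and neither labels nor methods say whether the 3 arrays of a source stand for different cultures or donors; the p-values below therefore measure the spread between arrays, which may be technical.

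EVs are membrane-bound particles released by most cells, and part of their content is miRNA. A miRNA is a short RNA that guides an Argonaute protein to messenger RNAs, mostly by pairing of its seed, the bases 2 to 8 from its 5′ end, and lowers their translation or stability. Many miRNAs are restricted to tissues: miR-122 is characteristic of hepatocytes, miR-143 and miR-145 of smooth muscle and fibroblast-like cells, and miR-451 and miR-144 of red blood cells and their precursors. The arrays do not tell a change in the number of vesicles from a change in the RNA per vesicle.

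The mature sequences of the separated miRNAs are shown because the seed decides which messenger RNAs each can pair with, and because it shows which of them could act on the same sites. They were taken from RefSeq (build GRCr8), where 14 of the 15 separated miRNAs and 345 of the 387 tested miRNAs matched by name. Each is written 5′ to 3′ with the seed in capitals. The 9 miRNAs higher in mesenchymal EVs were as follows.
miR-451-5p: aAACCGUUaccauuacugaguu
miR-144-3p: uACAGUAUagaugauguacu
miR-145-5p: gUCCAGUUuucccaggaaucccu
miR-199a-5p: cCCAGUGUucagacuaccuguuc
miR-199a-3p: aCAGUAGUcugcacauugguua
miR-125b-5p: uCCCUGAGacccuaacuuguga
miR-142-5p: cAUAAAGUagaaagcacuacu
miR-222-3p: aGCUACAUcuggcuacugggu
miR-500-3p: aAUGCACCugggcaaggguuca

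The miRNAs lower in mesenchymal EVs are shown for the same reason, and miR-23a-5p is named only.
miR-192-5p: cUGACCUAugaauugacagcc
miR-22-5p: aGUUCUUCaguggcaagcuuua
miR-3562: uUGGGGCAguggcuggauggga
miR-129-5p: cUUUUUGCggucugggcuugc
miR-3596c: aCUAUACAaccuccuaccuca

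No seed occurred more than 1 time among the 14, so no 2 of them belonged to the same seed family. Tested miRNAs outside the set shared 3 of these seeds, and they are shown because their arrays overlapped between the sides although their seeds were identical.
miR-125a-5p: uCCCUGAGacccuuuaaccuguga
miR-351-5p: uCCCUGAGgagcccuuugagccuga
miR-221-3p: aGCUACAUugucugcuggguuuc
miR-501-3p: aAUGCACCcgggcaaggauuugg

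The genes of the separated miRNAs lay on chromosomes 1, 3, 4, 10, 11, 13, 18 and X, and members were neighbours in 2 places. Mir144 (chr10:63459446-63459465, + strand) and Mir451a (chr10:63459585-63459606, + strand) started 139 bases apart, and both arms of Mir199a2 (chr13:77116255-77116277 and chr13:77116294-77116315, + strand) were members. The median GC content was 50% for the 9 higher miRNAs (range 30% to 54.5%), 47.6% for the 5 lower miRNAs with a sequence (range 40.9% to 63.6%) and 52.4% for all 345 (range 27.3% to 81%), and the median lengths were 22, 21 and 22 bases.

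Values below are background-corrected, quantile-normalised intensities on a log2 scale, and a log2 difference is mesenchymal minus hepatocytic with the 2 sources of a side weighted equally. A probe was detected where the authors' file gave it a background-subtracted value, that is, where it lay 2 SD or more above the blank-spot mean of that array. Of the spots labelled No Probe, 44.4% to 76.7% per array also lay above a limit of this form. Detection alone therefore does not show that a dim probe held signal of its miRNA. Detection ranged from 228 to 359 probes on the Thy1-MC-EV arrays, from 174 to 256 on the MSC-EV arrays and from 271 to 330 on the SH-EV arrays, and was highest on the MH-EV arrays (425 to 528). The MH-EV arrays stood apart from the other 9 before any normalisation. Their blank spots averaged 59.8 to 77.9 intensity units against 96.8 to 136 on the others, and their first spike-in control read 5089 to 7884 against 28850 to 32670. Arrays of 1 source correlated over the tested miRNAs at r = 0.931 to 0.992, whereas arrays of different sources on the same side (0.763 to 0.909, median 0.83) and arrays of opposite sides (0.731 to 0.909, median 0.815) were similar to each other. These correlations are across miRNAs, which are not independent replicates.

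Between the sides, limma called 54 miRNAs higher (14% of 387) and 61 lower (15.8%) in mesenchymal EVs at a Benjamini-Hochberg adjusted p under 0.05, 115 in all (29.7%). The separated miRNAs were fewer, 9 higher (2.33%) and 6 lower (1.55%), 3.88% of 387 in either direction, and 13 of them were also called by limma. The limma fit gave each EV source its own mean, so that differences between the 2 sources of a side did not enter its error. With 1 mean per side, which puts the spread between sources into the error, limma called 16 higher and 13 lower. The split of calls depended on the scaling: 47% of calls were higher in mesenchymal EVs with quantile normalisation, 80.2% after scaling to the median and 73.5% after scaling to the 75th percentile of the probes detected on all arrays, 6.31% with the authors' normalised values and 0.273% after scaling to the spike-in controls. The median log2 difference over the 387 miRNAs moved likewise, from -0.08 to 0.49, 0.48, -0.99 and -1.46, and it was -0.38 with plain background subtraction, so differences under those settings are given relative to that median. Median, 75th percentile and spike-in scaling shift all miRNAs of an array alike, so their relative values are equal by construction.

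**Figure D1:**
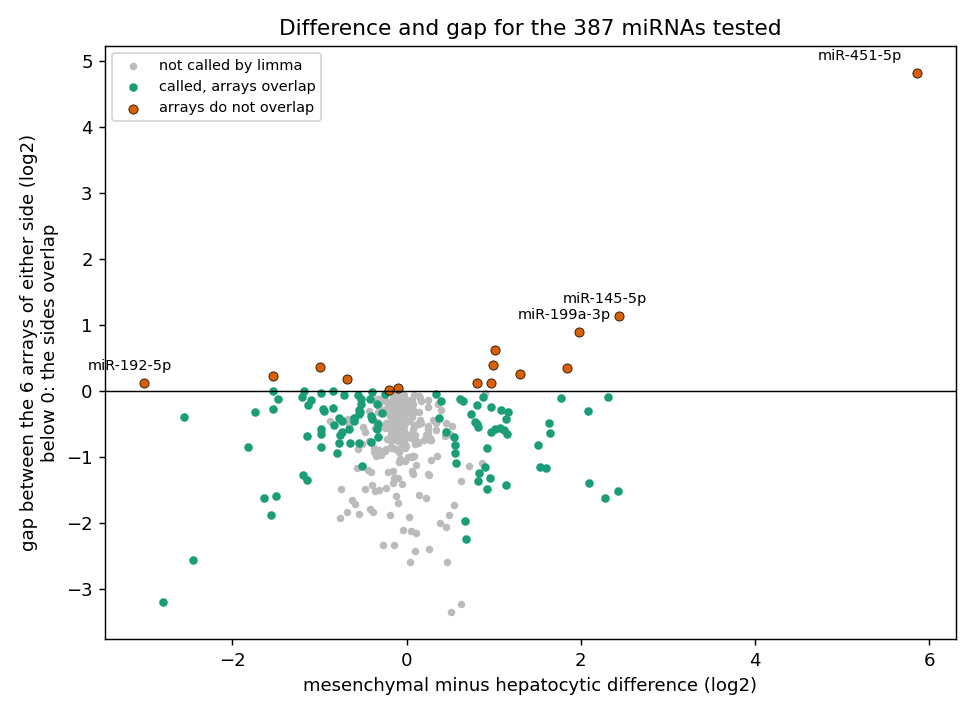
Each point is 1 of the 387 miRNAs tested; the horizontal axis is the mesenchymal minus hepatocytic difference (log2) and the vertical axis is the gap between the 6 arrays of either side (log2), with values below 0 where the sides overlapped. The 15 separated miRNAs lie above 0, miR-451-5p stands alone at a gap of 4.82, and 102 miRNAs called by limma lie at or below 0.

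miR-451-5p, a miRNA of red blood cells that is matured by Argonaute rather than by Dicer, had the widest gap between the sides. Its normalised intensity was 11.62, 11.08 and 10.66 on the Thy1-MC-EV arrays, 12.39, 12.10 and 12.10 on the MSC-EV arrays, 5.78, 5.84 and 5.84 on the SH-EV arrays, and 5.72, 5.82 and 5.78 on the MH-EV arrays. The lowest mesenchymal array thus lay 4.82 log2 units above the highest hepatocytic array. It was detected on all 6 mesenchymal arrays and on 1 of 6 hepatocytic arrays, so the hepatocytic level is only bounded: mesenchymal EVs held at least 53.8-fold more, the mean of the bright side over that of the dim side. In a source without any detection, each array took the higher of the probe's own value and the lowest signal of a detected probe. Undetected arrays of a source detected in part, here MH-EVs, kept their own value. Folds given as "at least", here and below, can be somewhat too high where this occurred. The log2 difference was 5.86 (SE 0.14, limma adjusted p = 4.72e-10). It was also the one member whose arrays stayed apart under all 11 other processing settings that tested it, from no background correction to spike-in scaling, with log2 differences of 4.13 to 10.44. Only the settings that changed the scaling could alter this, because the background settings kept probe ranks and the filters kept its values.

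miR-144-3p is made from the same primary transcript as miR-451 in mouse and human. It read 6.99, 6.41 and 6.48 in Thy1-MC-EVs, 7.02, 6.94 and 6.70 in MSC-EVs, 5.79, 5.75 and 5.73 in SH-EVs, and 5.71, 5.72 and 5.74 in MH-EVs. All 6 mesenchymal arrays detected it and none of the 6 hepatocytic arrays did. The log2 difference was 1.02 (SE 0.11, limma adjusted p = 9.68e-05), at least 1.78-fold. Relative to the median of all miRNAs it was 0.81 to 6.02 under the 8 background and scaling settings, although the spike-in scaling alone turned its unadjusted sign to -0.37.

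Both tested members of a list of 4 erythroid miRNAs were among the separated miRNAs, where 3.88% of all tested miRNAs were separated. Both passed the detection filter only through the mesenchymal sources, where they were high, so this share is no evidence about the list. Of that list 3 had a probe on the array, and their summed linear intensity was 1763 to 3327 in Thy1-MC-EVs and 4548 to 5551 in MSC-EVs, against 163 in each SH-EV array and 157 to 162 in MH-EVs. These miRNAs are markers of red blood cells, a cell type that neither mesenchymal source is labelled as, and the part of such cells in the result was not tested.

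Among the miRNAs of contractile and fibroblast-like cells, miR-145-5p had the next largest difference. It restrains proliferation and maintains the contractile state of smooth muscle in mouse. The arrays read 10.33, 10.43 and 11.36 in Thy1-MC-EVs, 10.17, 11.73 and 10.30 in MSC-EVs, 8.87, 6.85 and 7.75 in SH-EVs, and 8.62, 8.55 and 9.04 in MH-EVs. The sides were 1.14 apart at their closest, while the SH-EV arrays alone spanned more than that. All 12 arrays detected it. The sides differed by 2.44 (log2; SE 0.38, limma adjusted p = 0.000876), a 5.44-fold difference, and both mesenchymal sources had nearly the same mean (10.7 ± 0.57 and 10.7 ± 0.87, SD, n = 3). Without scaling it was 1.37 and not called (adjusted p = 0.0943).

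Both arms of the miR-199a hairpin, which is expressed in mesenchymal cells and fibrotic liver, were separated. miR-199a-5p read 7.18, 7.05 and 7.23 in Thy1-MC-EVs, 7.75, 8.44 and 7.09 in MSC-EVs, 6.33, 6.31 and 6.44 in SH-EVs, and 6.66, 6.61 and 6.46 in MH-EVs. The gap was 0.39, all 12 arrays detected it, and the log2 difference was 0.99 (SE 0.19, limma adjusted p = 0.00257). That call was lost with the authors' normalised values (0.38, adjusted p = 0.431) and without scaling (0.52, adjusted p = 0.176). miR-199a-3p read 7.06, 7.20 and 6.87 in Thy1-MC-EVs, 8.36, 9.54 and 7.98 in MSC-EVs, 5.71, 5.84 and 5.80 in SH-EVs, and 5.98, 5.93 and 5.87 in MH-EVs. This arm was detected in all mesenchymal and all MH-EV arrays and in no SH-EV array, and its log2 difference was 1.98 (SE 0.22, limma adjusted p = 0.000131), at least 3.61-fold. The MSC-EV arrays were higher than the Thy1-MC-EV arrays for the 3p arm (Thy1-MC-EV minus MSC-EV -1.58, limma adjusted p = 0.00483), whereas for the 5p arm the same contrast was -0.61 with an adjusted p of 0.132. The miR-214-3p of the same cluster, which started 5458 bases from the 5p arm, had a log2 difference of 0.45 (SE 0.28, limma adjusted p = 0.256) and overlapping arrays.

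miR-125b-5p, a miRNA widely expressed in mesenchymal and neural cells, read 11.24, 11.36 and 10.04 in Thy1-MC-EVs, 10.66, 10.86 and 10.56 in MSC-EVs, 8.47, 8.41 and 8.47 in SH-EVs, and 9.69, 9.39 and 9.25 in MH-EVs. The lowest mesenchymal array was the third Thy1-MC-EV array and the highest hepatocytic array the first MH-EV array, 0.35 apart. All 12 arrays detected it, and its log2 difference was 1.84 (SE 0.21, limma adjusted p = 0.000135), or 3.59-fold. The difference fell to 0.64 with the authors' normalised values (adjusted p = 0.115) and to 0.84 without scaling (adjusted p = 0.082), and neither was called. SH-EVs were lower than MH-EVs (-0.99, adjusted p = 0.0247). Its seed partner miR-125a-5p was called as well (1.16, SE 0.17, adjusted p = 0.000704) but overlapped by 0.32, and the other seed partner, miR-351-5p, had a difference of 0.27 that did not pass (adjusted p = 0.117).

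miR-142-5p, a miRNA of blood cells, had the smallest error among the 13 separated miRNAs that limma called. It read 6.29, 6.26 and 6.22 in Thy1-MC-EVs, 8.04, 8.08 and 7.97 in MSC-EVs, 5.75, 5.74 and 5.72 in SH-EVs, and 5.97, 5.90 and 5.96 in MH-EVs. The separation from the hepatocytic side was therefore narrow for Thy1-MC-EVs, of which 2 of 3 arrays detected it, and wide for MSC-EVs. No SH-EV array and all 3 MH-EV arrays detected it, and the log2 difference was 1.31 (SE 0.06, limma adjusted p = 1.03e-07), at least 2.22-fold. With 1 mean per side limma no longer called it, and Thy1-MC-EVs were 1.77 log2 units below MSC-EVs (adjusted p = 3.11e-07).

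miR-222-3p, which represses the cell cycle inhibitor Cdkn1b in human cells, had the same form. It read 6.20, 6.17 and 5.99 in Thy1-MC-EVs, 7.16, 7.68 and 7.43 in MSC-EVs, 5.80, 5.86 and 5.86 in SH-EVs, and 5.72, 5.80 and 5.80 in MH-EVs. The first Thy1-MC-EV array did not detect it, nor did any hepatocytic array, and the gap between the sides was 0.13. The log2 difference was 0.97 (SE 0.09, limma adjusted p = 6.20e-05), at least 1.80-fold, and it too was lost with 1 mean per side. Its neighbour and seed partner miR-221-3p, which started 564 bases away on chromosome X, had a larger log2 difference of 2.08 (SE 0.19, adjusted p = 5.01e-05) but was not separated: the third Thy1-MC-EV array (6.47) lay below the second MH-EV array (6.77), the first SH-EV array (6.57) and the first MH-EV array (6.51), while the MSC-EV arrays read 9.62, 10.51 and 10.25.

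miR-500-3p read 7.12, 7.09 and 7.35 in Thy1-MC-EVs, 7.85, 8.15 and 7.63 in MSC-EVs, 6.69, 6.97 and 6.97 in SH-EVs, and 6.50, 6.35 and 6.89 in MH-EVs. The sides were 0.12 apart, the narrowest gap among the 9 higher miRNAs. It differed by 0.81 on the log2 scale (SE 0.12, limma adjusted p = 0.000865), and without MSC-EVs the difference was not called. Its seed partner miR-501-3p, encoded 3456 bases away, was called (0.64, SE 0.12, adjusted p = 0.00314) with arrays that overlapped by 0.15.

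**Figure D2:**
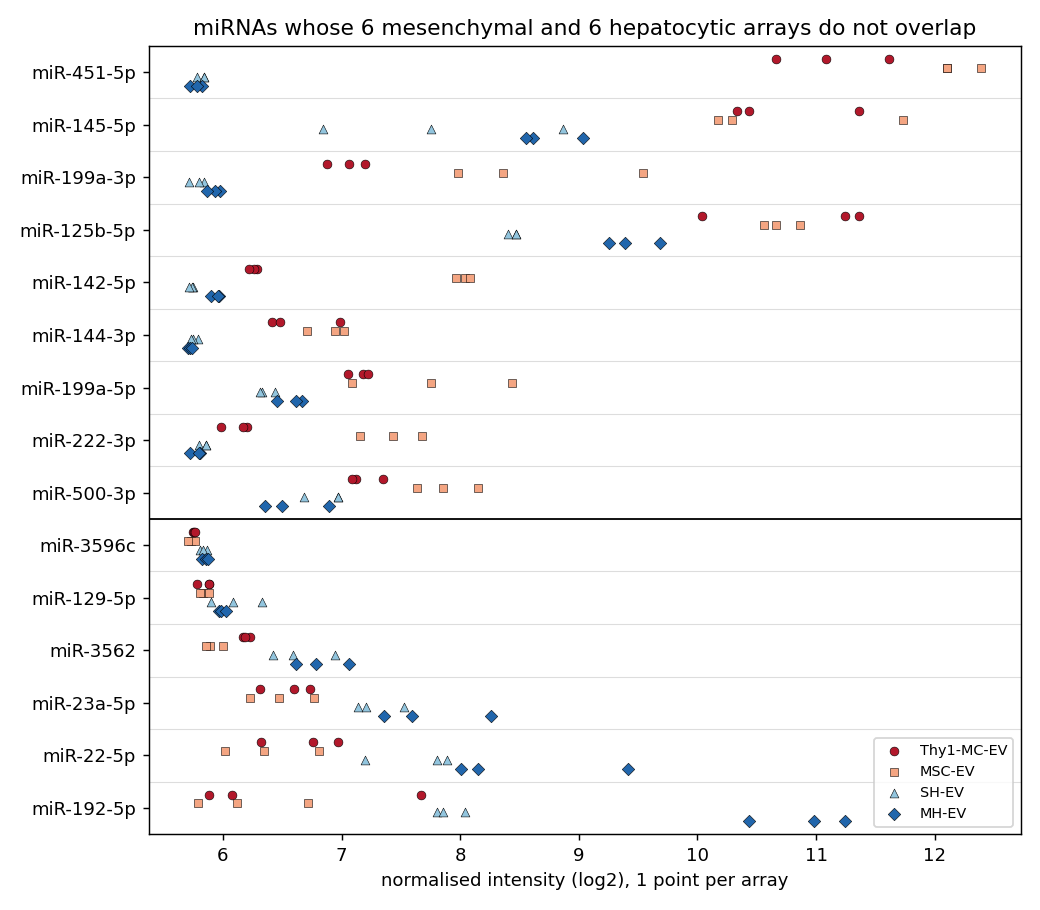
Normalised intensity (log2, horizontal axis) of the 15 separated miRNAs (rows), with 1 point per array and a symbol per EV source; the black line parts the 9 higher from the 6 lower miRNAs. For miR-142-5p and miR-222-3p the Thy1-MC-EV points lie close to the hepatocytic points and the MSC-EV points far to the right, and for miR-192-5p the MH-EV points lie above 10.4 and the SH-EV points near 8.

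On the hepatocytic side, miR-192-5p had the largest difference. It is abundant in liver, kidney and gut. It read 5.88, 6.07 and 7.67 in Thy1-MC-EVs, 6.72, 5.79 and 6.11 in MSC-EVs, 7.80, 7.85 and 8.04 in SH-EVs, and 10.98, 11.24 and 10.43 in MH-EVs. MH-EVs were 2.99 log2 units above SH-EVs (limma adjusted p = 0.000569), and the SH-EV arrays were only 0.13 above the third Thy1-MC-EV array, the single mesenchymal array that detected it. The log2 difference was -3.02 (SE 0.31, limma adjusted p = 8.74e-05). Mesenchymal EVs were 7.42-fold lower with the MSC-EV arrays set to their lowest detected signal. The undetected Thy1-MC-EV arrays kept their own values, so the bound is somewhat lower than this. miR-192-5p was called in all 31 other fits. The miR-194-5p of the same cluster, which started 194 bases from it, was detected on 1 of 6 mesenchymal arrays and was at least 4.63-fold lower there (fitted log2 difference -2.55, SE 0.19, adjusted p = 1.21e-05), but the sides overlapped, because the third Thy1-MC-EV array (7.05) exceeded 2 SH-EV arrays (6.66 and 6.96). The opposite arm, miR-192-3p, which no mesenchymal and 4 hepatocytic arrays detected, differed by -0.40 (SE 0.07, adjusted p = 0.00167), although its sign turned under median and 75th percentile scaling.

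miR-22-5p, the less abundant arm of the miR-22 hairpin in most tissues, read 6.32, 6.76 and 6.97 in Thy1-MC-EVs, 6.02, 6.81 and 6.34 in MSC-EVs, 7.20, 7.89 and 7.80 in SH-EVs, and 8.01, 8.15 and 9.41 in MH-EVs. All hepatocytic arrays and 2 of 3 arrays of each mesenchymal source detected it, and the third MH-EV array was the highest by over 1 log2 unit. Mesenchymal EVs differed by -1.54 (log2; SE 0.26, limma adjusted p = 0.00143), a 2.91-fold difference, with a gap of 0.23, and all 31 other fits called it. Its partner arm miR-22-3p differed by -0.95 (SE 0.32, adjusted p = 0.0487), a call that was lost in 20 of 32 other fits.

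miR-23a-5p, the minor arm of a hairpin in the miR-23a, miR-27a and miR-24 cluster, read 6.73, 6.31 and 6.60 in Thy1-MC-EVs, 6.47, 6.23 and 6.77 in MSC-EVs, 7.21, 7.52 and 7.13 in SH-EVs, and 8.26, 7.59 and 7.36 in MH-EVs. The mesenchymal sources had close means (Thy1-MC-EV minus MSC-EV 0.06, adjusted p = 0.879). The gap was 0.36, and the log2 difference was -0.996 (SE 0.17, limma adjusted p = 0.00128). The calls of miR-23a-5p and of miR-3562 were lost under median and under 75th percentile scaling. In the same cluster miR-27a-3p went the other way (0.90, SE 0.19, adjusted p = 0.0053) with overlapping arrays.

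miR-3562 read 6.23, 6.17 and 6.19 in Thy1-MC-EVs, 5.89, 5.997 and 5.86 in MSC-EVs, 6.94, 6.59 and 6.42 in SH-EVs, and 6.78, 6.62 and 7.06 in MH-EVs. All 6 hepatocytic arrays, 2 Thy1-MC-EV arrays and no MSC-EV array detected it. Its log2 difference was -0.68 (SE 0.11, limma adjusted p = 0.000876), at least 1.33-fold lower in mesenchymal EVs.

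The remaining pair of separated miRNAs lay near the background and did not pass the limma test. miR-129-5p, known from brain, was detected on no mesenchymal array and on 5 hepatocytic arrays, with values of 5.78 to 5.88 against 5.90 to 6.33, a gap of 0.02 and a log2 difference of -0.20 (SE 0.08, limma adjusted p = 0.0793). miR-3596c was detected only on the 3 MH-EV arrays, with values of 5.71 to 5.77 against 5.81 to 5.87 and a log2 difference of -0.10 (SE 0.06, limma adjusted p = 0.212). Its gene lies on the strand opposite let-7e, and all 21 bases of its mature form are the complement of let-7e-5p, so both are shown.
miR-3596c: aCUAUACAaccuccuaccuca
let-7e-5p: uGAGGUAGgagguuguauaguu

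let-7e-5p itself read 9.38 ± 0.60 in Thy1-MC-EVs, 8.34 ± 0.28 in MSC-EVs, 10.5 ± 0.17 in SH-EVs and 6.29 ± 0.18 in MH-EVs (mean ± SD, n = 3 arrays). miR-3596c itself had a mean of 5.84 in SH-EVs, where it was not detected, and of 5.85 in MH-EVs (SH-EV minus MH-EV -0.02, limma adjusted p = 0.889), and the lowest signal of a detected probe was 5.95 to 6.15 on the SH-EV arrays and 5.78 to 5.83 on the MH-EV arrays. For let-7e-5p the difference between the sides, 0.47 (SE 0.19), did not pass the limma test (adjusted p = 0.0883). For miR-129-5p and miR-3596c the sign of the difference turned under median, 75th percentile and no scaling, and for miR-3596c also with the authors' normalised values.

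The narrowest gaps among the 15 were those of miR-129-5p (0.02), miR-3596c (0.04) and miR-500-3p (0.12). Just outside the set, miR-674-5p, miR-365-5p and miR-208a-5p each had a gap of 0, because the highest mesenchymal and the lowest hepatocytic array held the same rank and therefore the same normalised value. That shared value was 7.25 for miR-674-5p, 10.86 for miR-365-5p and 9.46 for miR-208a-5p, and their log2 differences were -1.18 (limma adjusted p = 0.00364), -0.84 (adjusted p = 0.0164) and -1.54 (adjusted p = 0.0115).

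**Figure D3:**
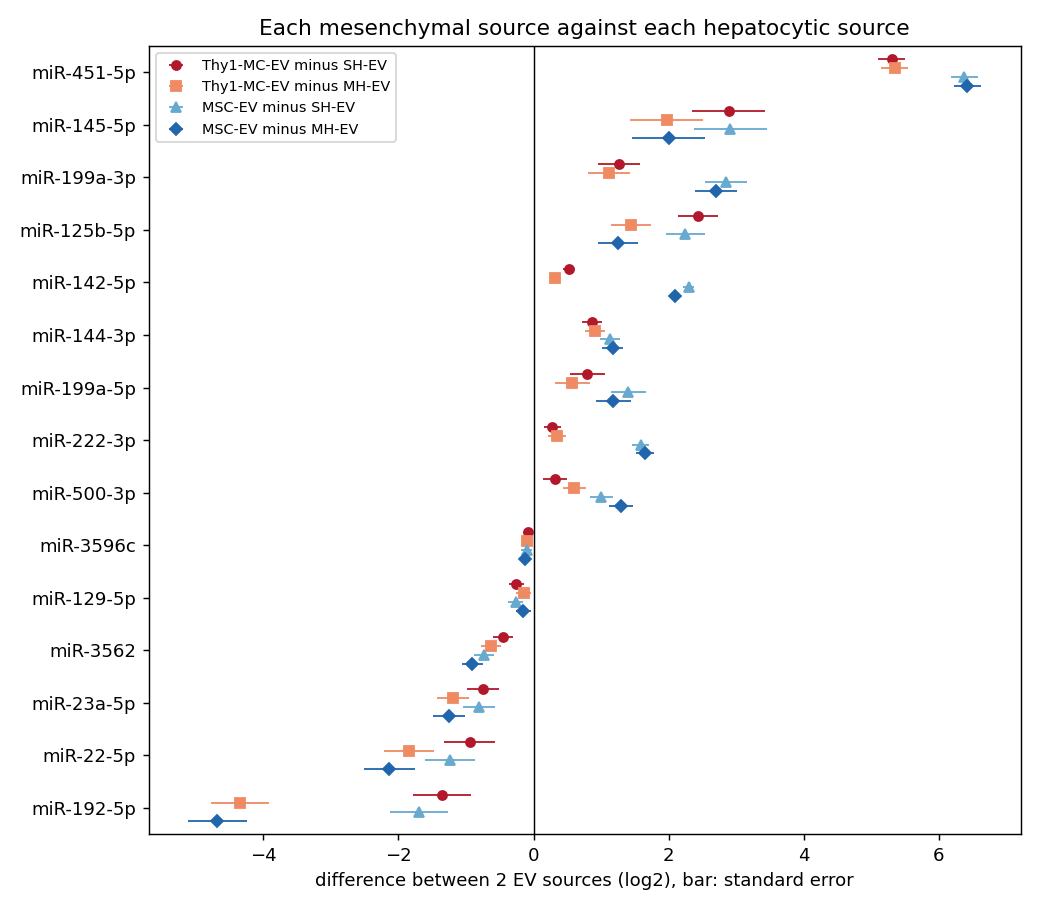
Log2 difference (horizontal axis) of each mesenchymal source against each hepatocytic source for the 15 separated miRNAs, with bars for the standard error from the limma fit. The 4 differences of a miRNA have the same sign by the way the miRNAs were chosen, and they spread most for miR-192-5p, from -1.36 to -4.68.

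The 4 differences between single sources, which share their arrays in pairs, were unequal. Their signs were fixed by the choice of the 15, so call counts above the shares of all tested miRNAs are no independent evidence. Against SH-EVs, limma called 6 of the 9 higher and none of the 6 lower miRNAs in Thy1-MC-EVs, where it called 6.2% of all tested miRNAs higher, 6.98% lower and 13.2% either way. For MSC-EVs against SH-EVs it called 9 and 4 (background 11.9%, 16.5% and 28.4%). Against MH-EVs, it called 7 and 4 in Thy1-MC-EVs (14%, 15.5% and 29.5%) and 9 and 4 in MSC-EVs (14.5%, 19.4% and 33.9%). miR-199a-5p and miR-222-3p were not called for Thy1-MC-EVs against either hepatocytic source (0.80 and 0.57 for miR-199a-5p, 0.28 and 0.35 for miR-222-3p). Apart from miR-129-5p, the lower miRNAs were nearest to the hepatocytic side in Thy1-MC-EV against SH-EV. There miR-192-5p differed by -1.36 (limma adjusted p = 0.0649) and miR-22-5p by -0.95 (adjusted p = 0.124). For miR-129-5p the difference of Thy1-MC-EVs was -0.26 against SH-EVs and -0.14 against MH-EVs.

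Within a side the separated miRNAs also varied. Thy1-MC-EVs were lower than MSC-EVs for 5 of the 15 at an adjusted p under 0.05 and higher for none, where 10.1% of all tested miRNAs were called lower and 22% either way between these sources. The 5 were miR-451-5p (-1.07, adjusted p = 0.00393), miR-199a-3p, miR-142-5p, miR-222-3p (-1.31, adjusted p = 7.08e-05) and miR-500-3p (-0.69, adjusted p = 0.0169). Between SH-EVs and MH-EVs, 2 of the 15 were called, miR-125b-5p and miR-192-5p, both lower in SH-EVs, where 16.8% of all tested miRNAs were called lower and 31.8% either way.

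The 102 miRNAs that limma called but whose arrays overlapped, 45 higher and 57 lower, overlapped most often between Thy1-MC-EVs and SH-EVs. These sources overlapped for 51 of the 102, MSC-EVs and SH-EVs for 44, Thy1-MC-EVs and MH-EVs for 41, and MSC-EVs and MH-EVs for 26. For 44 miRNAs a single pair of sources was the only one to overlap. Several carried larger differences than most separated miRNAs, as the groups below show. Counts over these groups describe the tested members only, since a miRNA that passed the detection filter through 1 bright source had to differ from the others.

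Of the miRNAs typical of hepatocytes, 16 of 17 with a probe were tested, 8 were lower and 1 higher in mesenchymal EVs (56.2% called, against 29.7% of all tested miRNAs), and their median log2 difference was -0.41 against -0.08 for all miRNAs. That median lay below the median of all miRNAs under each of the 8 background and scaling settings, by 0.24 to 1.03, although its own sign turned to 0.16 and 0.15 with median and 75th percentile scaling. By construction the median, 75th percentile and spike-in scalings give the same relative median, here and in the groups below. The liver miRNA miR-122-5p read 14.65, 14.65 and 14.05 in MH-EVs, 8.01, 9.09 and 9.23 in SH-EVs, 9.14, 9.59 and 10.56 in Thy1-MC-EVs, and 8.24, 9.31 and 8.13 in MSC-EVs. The defining hepatocyte miRNA was thus detected on all 12 arrays, but SH-EVs did not exceed the mesenchymal EVs, and its log2 difference of -2.45 (SE 0.32, limma adjusted p = 0.000326) became 0.38 without MH-EVs. miR-122-3p (-2.80, SE 0.52, adjusted p = 0.00243, at least 5.52-fold lower) and miR-101b-3p (-1.54, SE 0.23, adjusted p = 0.000702) were lost without MH-EVs, and the former also without MSC-EVs. The one member that was higher was miR-378a-5p, encoded within a gene of mitochondrial metabolism, at 1.14 (SE 0.19, adjusted p = 0.00115), a sign that turned with the authors' normalised values and the spike-in scaling. The summed intensity of the 17 hepatocyte probes was 35416 to 38877 in MH-EVs and 4419 to 7201 on all other arrays.

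Of the miRNAs of contractile and stromal cells, 13 of 17 were tested, 7 were higher and 2 lower (69.2% called, against 29.7% of all), and the median log2 difference was 0.68; relative to all miRNAs it stayed positive under the 8 settings (0.60 to 0.97). Besides miR-145-5p and both arms of miR-199a, miR-143-3p was higher by 1.78 (SE 0.25, limma adjusted p = 0.000509) and missed separation by 0.10, because the first MH-EV array (7.27) exceeded the third Thy1-MC-EV array (7.17). The miR-143 hairpin lies 1340 bases from miR-145. Its other arm, miR-143-5p, differed by 1.51 (SE 0.37, adjusted p = 0.0115), and miR-29b-3p, a repressor of collagen genes in mouse and human, by 1.08 (SE 0.14, adjusted p = 0.000335). The call of miR-143-5p was lost in 6 of 32 other fits, among them without Thy1-MC-EVs and without MH-EVs. That of miR-29b-3p was lost in 5 of 32, among them without MSC-EVs. The 2 that were lower were miR-31a-5p (-1.74, SE 0.21, adjusted p = 0.000182) and miR-29c-3p (-0.53, SE 0.15, adjusted p = 0.0235), whose call was lost in 8 of 32 other fits.

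Of the miR-125 and miR-99/100 miRNAs, 9 of 11 were tested and 4 were higher (44.4%, against 14% of all tested miRNAs called higher), with a median of 0.25 that stayed above that of all miRNAs by 0.16 to 1.01. Besides miR-125b-5p and miR-125a-5p these were miR-125a-3p (1.64, SE 0.34, limma adjusted p = 0.00494) and miR-125b-1-3p (0.92, SE 0.28, adjusted p = 0.0308), both highest in Thy1-MC-EVs and both lost without that source, the latter in 15 of 32 other fits. miR-99a-5p did not pass (-0.47, adjusted p = 0.388). Of the growth-associated miRNAs miR-21, miR-221 and miR-222, 4 of 6 were tested and 3 were higher (75%; median 1.06, 0.83 to 2.41 above all miRNAs), with miR-21-5p at 1.15 (SE 0.32, adjusted p = 0.0199) and an MSC-EV mean of 11.8 ± 0.17 against 9.64 to 9.82 in the other sources.

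Of the leukocyte miRNAs, 9 of 14 were tested, 7 were higher and none lower (77.8%, against 14% of all called higher), and the median was 1.11, which stayed above that of all miRNAs by 0.69 to 2.32 under the 8 settings. The largest differences rested on MSC-EVs. miR-146a-5p, a brake on inflammatory signalling, read 10.39, 11.62 and 11.18 in MSC-EVs but 5.83, 5.75 and 5.79 in Thy1-MC-EVs, where no array detected it, against 5.91, 5.79 and 5.87 in SH-EVs and 7.14, 6.89 and 6.36 in MH-EVs. Its log2 difference of 2.10 (SE 0.20, limma adjusted p = 6.20e-05) turned to -0.54 (adjusted p = 0.0439) without MSC-EVs, and that of miR-146b-5p (at least 2.99-fold) from 1.63 to -0.07. miR-181a-5p (1.60, SE 0.23) and the myeloid miR-223-3p (1.11, SE 0.18) were also lost without MSC-EVs. The summed intensity of the 14 leukocyte probes was 4076 to 6228 in MSC-EVs, 1194 to 1406 in Thy1-MC-EVs, 1062 to 1458 in SH-EVs and 955 to 1099 in MH-EVs, and the part of blood cells in the result was not tested. The endothelial miR-126a-3p was higher by 0.97 (SE 0.16, adjusted p = 0.00115, at least 1.86-fold), and its partner arm was not called. The call of miR-126a-3p was lost in 5 of 31 other fits, among them without SH-EVs and with 1 mean per side.

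Of the cluster of miR-183, miR-96 and miR-182, known from sensory cells, 4 of 5 probes were tested and all 4 were lower (15.8% of all were called lower), with a median of -1.27 that stayed 0.68 to 3.10 below that of all miRNAs, although 2 were called with cyclic loess, 1 with median and 0 with 75th percentile scaling. miR-182 differed by -1.56 (SE 0.17, limma adjusted p = 9.68e-05), at least 2.32-fold, and miR-183-5p by -1.64 (SE 0.25, adjusted p = 0.000845), at least 2.41-fold. The SH-EV means of these 2 were 10.2 ± 0.19 and 9.80 ± 0.58, and without SH-EVs the differences turned to 0.34 and 0.31. miR-96-5p (-0.98, adjusted p = 0.00128, at least 1.55-fold lower) and miR-183-3p (-0.60, adjusted p = 0.0309) were lost without SH-EVs as well.

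The miR-290 cluster, known from mouse embryonic stem cells, had 3 of 6 tested members lower (50%, against 15.8% of all; median -0.49, below all miRNAs by 0.34 to 0.95). They were miR-294 (-1.82, SE 0.27, limma adjusted p = 0.000702), miR-291a-5p (-1.49, SE 0.30, adjusted p = 0.00364) and miR-290 (-0.75, SE 0.19, adjusted p = 0.0131), and their calls were lost without MH-EVs, that of miR-290 also without MSC-EVs and with median or 75th percentile scaling. In the miR-17/92 and miR-106b/25 clusters, which promote proliferation, 4 of 15 were lower and none higher, 26.7% called and so close to the 29.7% of all tested miRNAs, and the median of -0.05 lay above or below that of all miRNAs depending on the setting. miR-19b-3p (-1.20, SE 0.14, adjusted p = 0.000146) missed separation by 0.09, and miR-25-3p (-1.13, SE 0.17, adjusted p = 0.000702), miR-92a-3p (-0.99, adjusted p = 0.0444) and miR-19a-3p (-0.55, adjusted p = 0.0239) were the others. The call of miR-92a-3p was lost in 14 of 32 other fits and that of miR-19a-3p in 8 of 31.

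In the miR-30 family, abundant in epithelia, 2 of 9 were lower, miR-30b-5p (-1.19, SE 0.14, limma adjusted p = 0.000145) and miR-30d-5p (-0.52, adjusted p = 0.0484), and 1 was higher, miR-30c-1-3p (0.67, adjusted p = 0.0269), with a median of -0.14 that stayed 0.06 to 0.33 below that of all miRNAs. The call of miR-30d-5p was lost in 22 and that of miR-30c-1-3p in 16 of 32 other fits. That of miR-30b-5p was lost in 3 of 32: without Thy1-MC-EVs, without MH-EVs and with 1 mean per side. The miR-15/16 family had 2 of 6 higher (median 0.25, above all miRNAs by 0.25 to 1.08): miR-16-5p (1.53, SE 0.19, adjusted p = 0.000194), with a mean of 10.9 ± 0.09 in MSC-EVs, and miR-15b-5p (0.83, SE 0.20, adjusted p = 0.00991), both lost without MSC-EVs. In the let-7 family, 2 of 7 were higher, let-7f-5p (0.80, SE 0.16, adjusted p = 0.00314) and let-7i-5p (0.81, SE 0.18, adjusted p = 0.00678), and the family median of -0.02 changed side with the setting. Both calls were lost without MSC-EVs, and that of let-7i-5p also without SH-EVs. Of the miR-23/27/24 clusters 1 of 8 was higher and 1 lower, of the miR-200 family 1 of 5 each, of the imprinted Dlk1-Dio3 miRNAs 3 of 18 higher and 1 lower, and of neuronal and muscle miRNAs 2 of 5 lower. The shares called were 33.3% in the miR-30 and miR-15/16 families and 28.6% in the let-7 family, near the 29.7% of all tested miRNAs, and 25%, 40%, 22.2% and 40% in the last 4 groups.

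**Figure D4:**
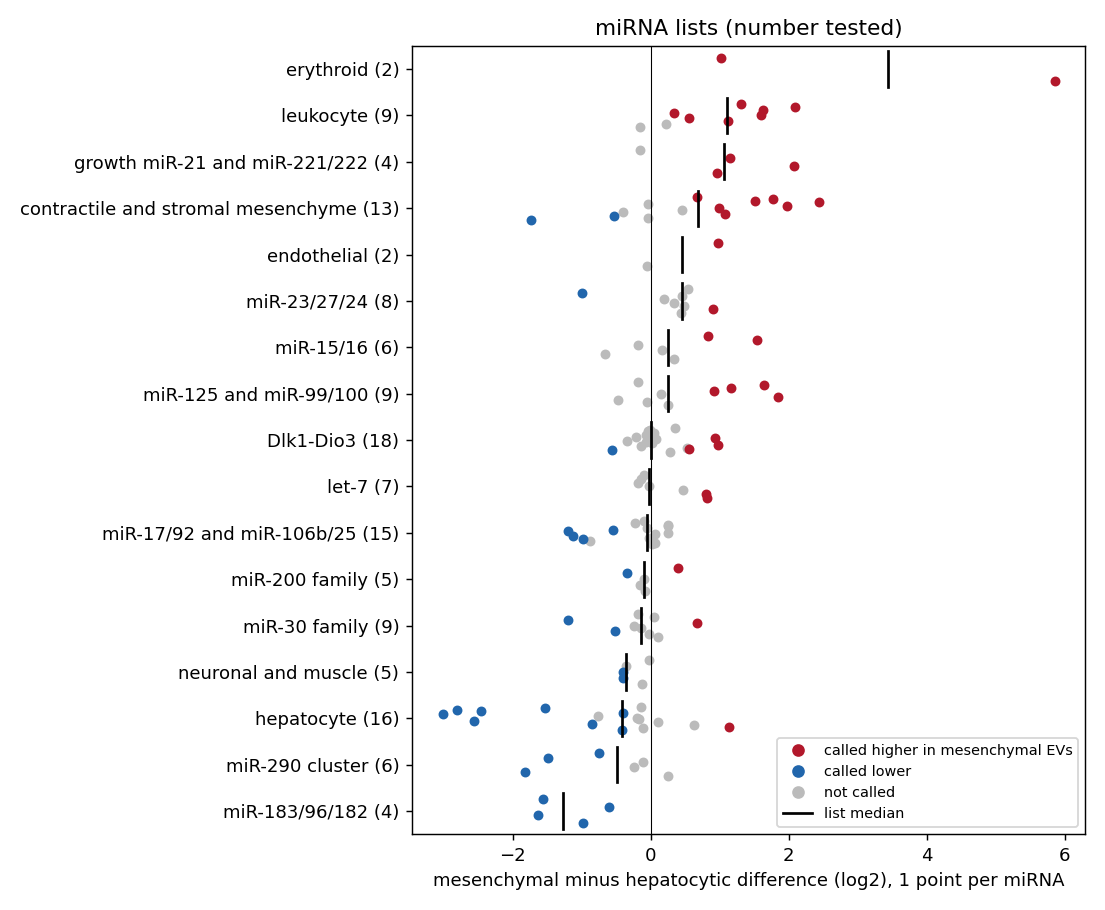
Mesenchymal minus hepatocytic log2 difference (horizontal axis) of the tested miRNAs of each list, 1 point per miRNA, with the list median as a black bar, the limma call as the colour and the number tested in brackets. The leukocyte list has 7 of 9 points called higher and the list of the miR-183 cluster has 4 of 4 called lower; under the median and 75th percentile scalings the hepatocyte median, -0.41 here, lay above 0.

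All 7 miRNAs that the study named were called higher in mesenchymal EVs, where 14% of all tested miRNAs were. For 6 of them this is no independent evidence, because they were chosen on these arrays, and miR-146a-5p was taken up from earlier work. Their arrays were separated for miR-451-5p, miR-125b-5p, miR-199a-5p and miR-145-5p, and overlapped for let-7f-5p, miR-3473 and miR-146a-5p. miR-3473 read 13.48, 12.30 and 13.48 in Thy1-MC-EVs, 13.48, 14.65 and 14.65 in MSC-EVs, 12.39, 10.98 and 10.74 in SH-EVs, and 12.30, 11.73 and 10.04 in MH-EVs. The second Thy1-MC-EV array was 0.09 below the first SH-EV array, and the log2 difference was 2.31 (SE 0.45, limma adjusted p = 0.00351).

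The separation of the 15 was compared across processing settings. All 15 stayed apart with normexp at an offset of 1, with no background correction and with plain subtraction. These settings keep the rank of each probe within its array apart from ties, so quantile normalisation fixed this outcome in advance. Of the 9 higher and 6 lower miRNAs, 8 and 5 stayed apart with cyclic loess, 5 and 2 with median scaling, 3 and 2 with the 75th percentile, 3 and 1 with no scaling, 2 and 2 with the authors' normalised values and 1 and 2 with spike-in scaling. Relative to each setting's median, the 9 higher miRNAs remained above it under all 8 settings plotted, by 0.53 at least, while miR-129-5p and miR-3596c moved above it under 4 of them. Median, 75th percentile and spike-in scaling have the same relative values by construction, so they are not separate checks. Of the named miRNAs that limma called, 31 higher and 28 lower, 23 and 10 lost the call without scaling, 20 and 0 with the authors' normalised values, 30 and 0 with spike-in scaling, and 2 and 13 with 75th percentile scaling.

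**Figure D5:**
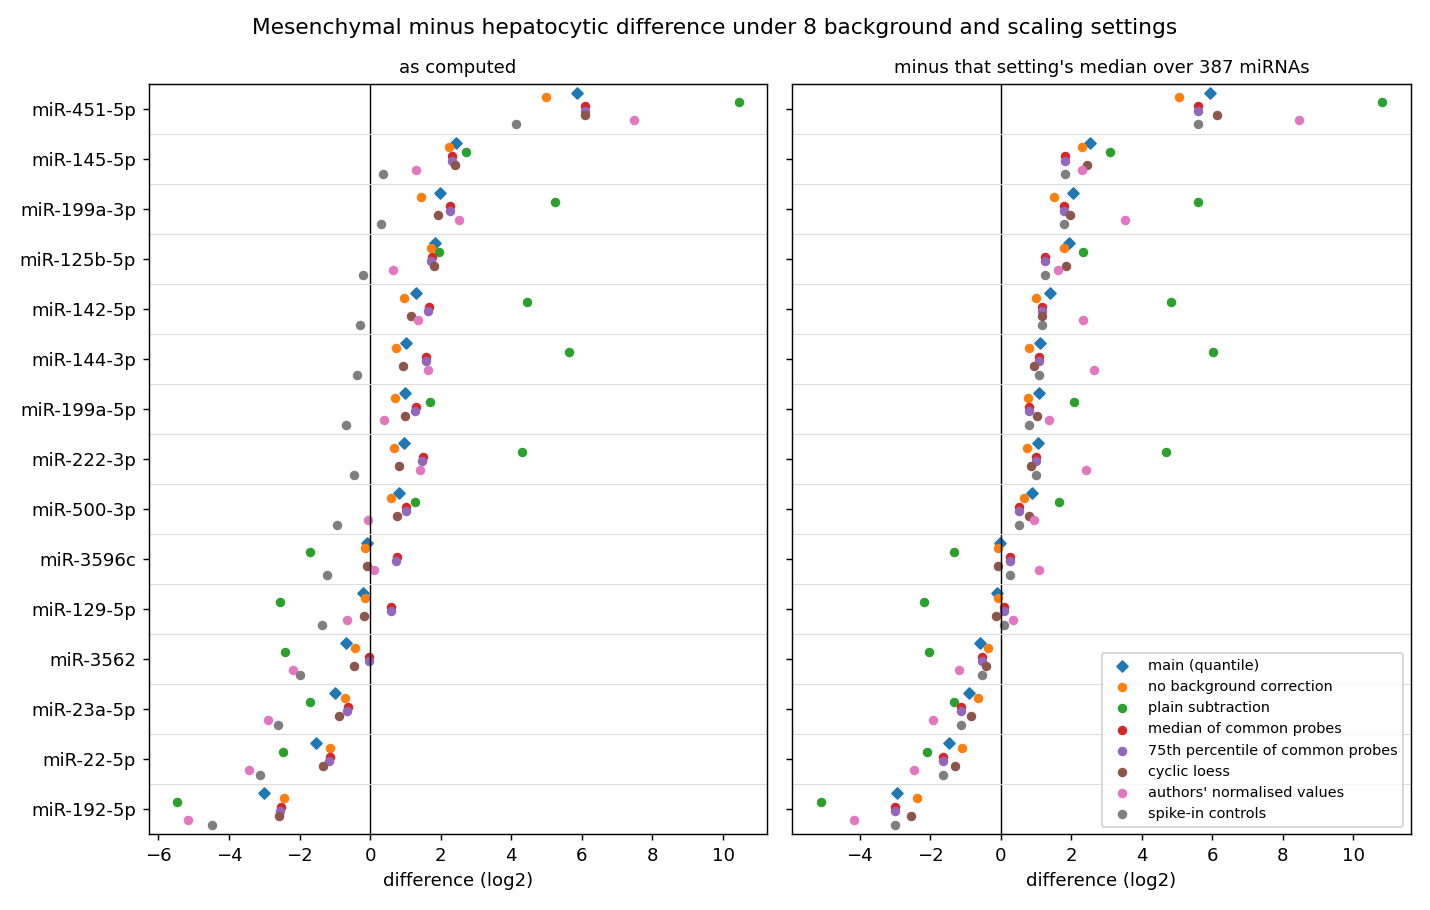
Log2 difference of the 15 separated miRNAs (rows) under 8 background and scaling settings, as computed (left) and after subtraction of that setting's median over the 387 miRNAs (right). On the left the spike-in scaling moves 6 of the 9 higher miRNAs below 0 and the authors' normalised values move miR-500-3p to -0.07; on the right all 9 lie above 0, and 4 of the 6 lower miRNAs lie below 0 under every setting.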

How the data were processed

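EV miRNAs of 12 samples, 3 arrays for each of 4 cell sources, had been measured on a single-colour oligonucleotide array for rat miRNAs. The authors deposited, for each array, the raw intensity of every spot, a background-subtracted intensity for spots above the blank spots and a globally normalised intensity; the raw intensity was used here. Blank spots served as negative controls for a normexp background correction (limma 3.58.1, R 4.3.3; offset 50, 5% of blank spots trimmed at either end), followed by quantile normalisation over the 12 arrays and log2. The 2 flagged probe values were left out. Per array, 1504 blank spots and 174 to 528 detected probes set the precision. miRNAs detected on all 3 arrays of at least 1 source were tested with lmFit and eBayes, 1 mean per source, with Benjamini-Hochberg adjustment over all 387. The fit was tested on simulated data that held no differences between the 2 sources of a side, so this test does not cover such differences. Mature sequences came from RefSeq tables (GRCr8).

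Named miRNAs were the separated and called ones, up to 5 per list by adjusted p and any that passed the other way, those the study names, seed and cluster partners of the separated miRNAs, those with the narrowest gaps or overlaps, and those with the largest differences within a side. The groups, miRNA lists and rules were chosen with earlier results of these data known. Alternatives covered the background correction, scaling, filter, fit and left-out arrays or sources.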

Additional observations from a re-analysis of the deposited data

Results flagged for a closer look

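Among the miRNAs named above, the 6 arrays of each side were examined for 1 array far from the others (gap to the nearest array over the range of the 6, above Dixon's 95% critical value), in 130 groups of 6. Chance gives such an array in about 1 of 20 groups, and 5 were found. The 6 arrays of a side come from 2 sources, so a difference between sources can also enter. No separated miRNA was among them. miR-99a-5p read 11.95 on the third MH-EV array, where the next highest hepatocytic array read 9.83. miR-22-3p read 14.65 on the same array, where the next highest read 13.08. miR-194-5p read 7.05 on the third Thy1-MC-EV array against 6.07 for the next highest mesenchymal array, and this array alone kept miR-194-5p from being separated from 2 SH-EV arrays. miR-351-5p read 7.78 on the first SH-EV array against 7.37, and let-7f-5p read 7.45 on the second MH-EV array against 6.87.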

How the results depend on the processing

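Counts of separated miRNAs (9 higher, 6 lower) stayed within 1.5 times under normexp with an offset of 1, no background correction, plain subtraction, median scaling, cyclic loess and 2 of the 3 other filters. The background settings among these keep probe ranks within an array, so they could hardly move the counts. They were 4 and 3 with 75th percentile scaling, 4 higher with no scaling, 2 and 17 with the authors' normalised values, 1 and 19 with spike-in scaling (chosen after seeing the data), and 4 and 0 among the 150 miRNAs detected on all 12 arrays, where fewer were tested. With a whole source left out, and so fewer arrays to keep apart, they were 37 and 51 (no Thy1-MC-EVs), 33 and 18 (no MSC-EVs), 36 and 62 (no SH-EVs) and 30 and 38 (no MH-EVs). Leaving out 1 array gave 9 to 16 higher and 7 to 10 lower; the counts moved by over 1.5 times to 16 higher without the second MSC-EV array and to 10 lower without the third Thy1-MC-EV, the first SH-EV or the third SH-EV array.

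limma called 54 higher and 61 lower. It called 93 and 23 with median scaling, 50 and 18 with the 75th percentile, 13 higher with no scaling, 14 and 208 with the authors' values, 1 and 365 with spike-in scaling, 35 and 23 among miRNAs detected on all arrays, 39 lower without MSC-EVs and 16 and 13 with 1 mean per side. The methods' t-test on the pooled sides called 41 and 57 unadjusted and 8 and 9 after Benjamini-Hochberg. Leaving out 1 array gave 47 to 56 higher and 50 to 75 lower, and the replicate block gave 52 and 63. Arrays with the same replicate number deviated together (r above 0.1) in 11 of 18 pairs, which included all 6 pairs of number 1 (r = 0.113 to 0.481) and all 3 pairs of Thy1-MC-EVs with MH-EVs (0.202 to 0.322), so the numbers did not pair the arrays of all sources. For Thy1-MC-EVs against MH-EVs limma called 54 higher and 60 lower, and 58 and 67 with the block (added after seeing the data), which changed the call of no separated miRNA. The median difference of -0.08 moved to -0.38 with plain subtraction, 0.49 with median scaling, 0.48 with the 75th percentile, -0.99 with the authors' values and -1.46 with spike-in scaling, and was -0.08 to -0.07 without 1 array. The cause was not tested for any of these.

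Among named miRNAs, signs turned as follows. With spike-in scaling: let-7e-5p -1.24, let-7f-5p -0.95, let-7i-5p -0.76, miR-125a-3p -0.21, miR-125a-5p -0.71, miR-125b-1-3p -0.98, miR-125b-5p -0.21, miR-126a-3p -0.77, miR-142-5p -0.30, miR-143-3p -0.08, miR-143-5p -0.13, miR-144-3p -0.37, miR-146b-5p -0.04, miR-15b-5p -1.13, miR-16-5p -0.60, miR-181a-5p -0.32, miR-199a-5p -0.67, miR-21-5p -0.80, miR-214-3p -1.68, miR-222-3p -0.47, miR-223-3p -0.77, miR-27a-3p -1.10, miR-29b-3p -0.86, miR-30c-1-3p -1.40, miR-351-5p -1.42, miR-378a-5p -0.90, miR-500-3p -0.93 and miR-501-3p -1.04. With the authors' values: let-7e-5p -0.24, let-7f-5p -0.12, miR-125b-1-3p -0.25, miR-15b-5p -0.22, miR-21-5p -0.02, miR-214-3p -0.98, miR-27a-3p -0.34, miR-29b-3p -0.02, miR-30c-1-3p -0.69, miR-351-5p -0.96, miR-3596c 0.10, miR-378a-5p -0.06, miR-500-3p -0.07 and miR-501-3p -0.23. With median scaling and the 75th percentile: miR-129-5p 0.59 and 0.58, miR-192-3p 0.31 and 0.30, miR-3596c 0.75 and 0.73. With no scaling: miR-129-5p 0.14, miR-214-3p -0.46, miR-30c-1-3p -0.17, miR-351-5p -0.03 and miR-3596c 0.18. Without MH-EVs: let-7e-5p -1.63, miR-122-5p 0.38, miR-291a-5p 0.34, miR-30c-1-3p -0.56 and miR-99a-5p 0.07. Without MSC-EVs: miR-146a-5p -0.54, miR-146b-5p -0.07 and miR-99a-5p 0.07. Without SH-EVs: miR-182 0.34 and miR-183-5p 0.31. Without Thy1-MC-EVs: let-7e-5p -0.06, miR-125b-1-3p -0.14, miR-30c-1-3p -0.13, miR-30d-5p 0.19 and miR-351-5p -0.13. Over all named miRNAs and settings, 1712 values kept their direction and side of the threshold, 241 lost and 23 gained the call. Signal over background limits the separated miRNAs: 4 of 15 were detected on all 12 arrays and 11 on all 6 arrays of their brighter side. The number of arrays limits the precision.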
